A study of Bos indicus with 5 samples.

Results

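The genes described here form the bone morphogenetic protein (BMP), activin and SMAD signaling pathway in the ampulla, the part of the oviduct where fertilization takes place. Members were chosen by symbol alone, as every row of the table named as a BMP, a GDF, an activin or inhibin subunit, an activin or BMP receptor, a SMAD, follistatin or a follistatin-like gene, noggin, GREM1, a chordin, BMPER or an ID gene. This rule found 54 of 24616 genes. ID4 and FSTL5 were not analysed here. The rule also took in BMP1, a protease that cleaves procollagen and chordin, and BMP2K, a kinase, which are named for BMPs but are neither ligand, receptor nor SMAD.

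RNA was sequenced from the ampulla of 5 multiparous, non-lactating Nelore (Bos indicus) cows, each library from a different animal. The 2 cows of the LF/LCL group (larger follicle, larger corpus luteum) received a prostaglandin F2α analog when the progesterone device was inserted, and the device was removed 42 h before the GnRH agonist. The 3 cows of the SF/SCL group (smaller follicle, smaller corpus luteum) did not receive that injection at insertion, and their device was removed 30 h before the agonist. Cows of both groups were presynchronized with a GnRH agonist and the prostaglandin analog. At insertion all received an intravaginal device with 1 g of progesterone and 2 mg of estradiol benzoate, and at device removal they received the prostaglandin analog, again 6 h later. Tissue was taken on day 4 after the agonist. The study picked the sequenced animals from the top of the LF/LCL ranking and the bottom of the SF/SCL ranking of follicle diameter, estradiol, corpus luteum area and progesterone, so the libraries stand for the ends of both groups. A further LF/LCL library was discarded by the study because it gave few reads.

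BMPs, GDFs and activins are secreted dimers that bind pairs of type I and type II receptor kinases. The activated type I receptor phosphorylates a receptor SMAD, which is SMAD1, SMAD5 or SMAD9 for most BMPs and SMAD2 or SMAD3 for activins, and this partner enters the nucleus with SMAD4. Noggin, GREM1, chordins and follistatin trap the ligands outside the cell, SMAD6 and SMAD7 block the receptors from inside it, and the ID genes are well known transcriptional targets of BMP signaling. In the reproductive tract the family is best known from the ovary, where GDF9 and BMP15 come from the oocyte and inhibins and follistatin from granulosa cells.

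A level below is a normalized read count, which is the number of reads of a gene divided by 1 size factor per library. It depends on transcript length as well as on abundance, and no transcript lengths were at hand, so levels were compared between libraries and not between genes. In bulk tissue, fewer cells of a type and less RNA per cell cannot be told apart. The libraries held from 13418278 to 19592174 reads assigned to genes, so 3 reads, taken as the limit that a count of 0 allows, correspond to levels of 2.33 to 3.52, for counting error only. Markers of the ampulla epithelium were present, with OVGP1, the oviduct glycoprotein, at 117179 to 147247 and FOXJ1, the regulator of motile cilia, at 8481 to 12698.

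Of the 54 members, 6 had a mean level of at least 1000 over the 5 libraries, 33 a mean from 15 to under 1000, and 2 a mean over 5 but under 15. These 41 entered the test. Of the other 13, 9 had a few reads and 4, BMP10, GDF5, INHBC and INHBE, had no read in any library. The plot of levels by library shows the 41 tested members by their role in the pathway.

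**Figure D1:**
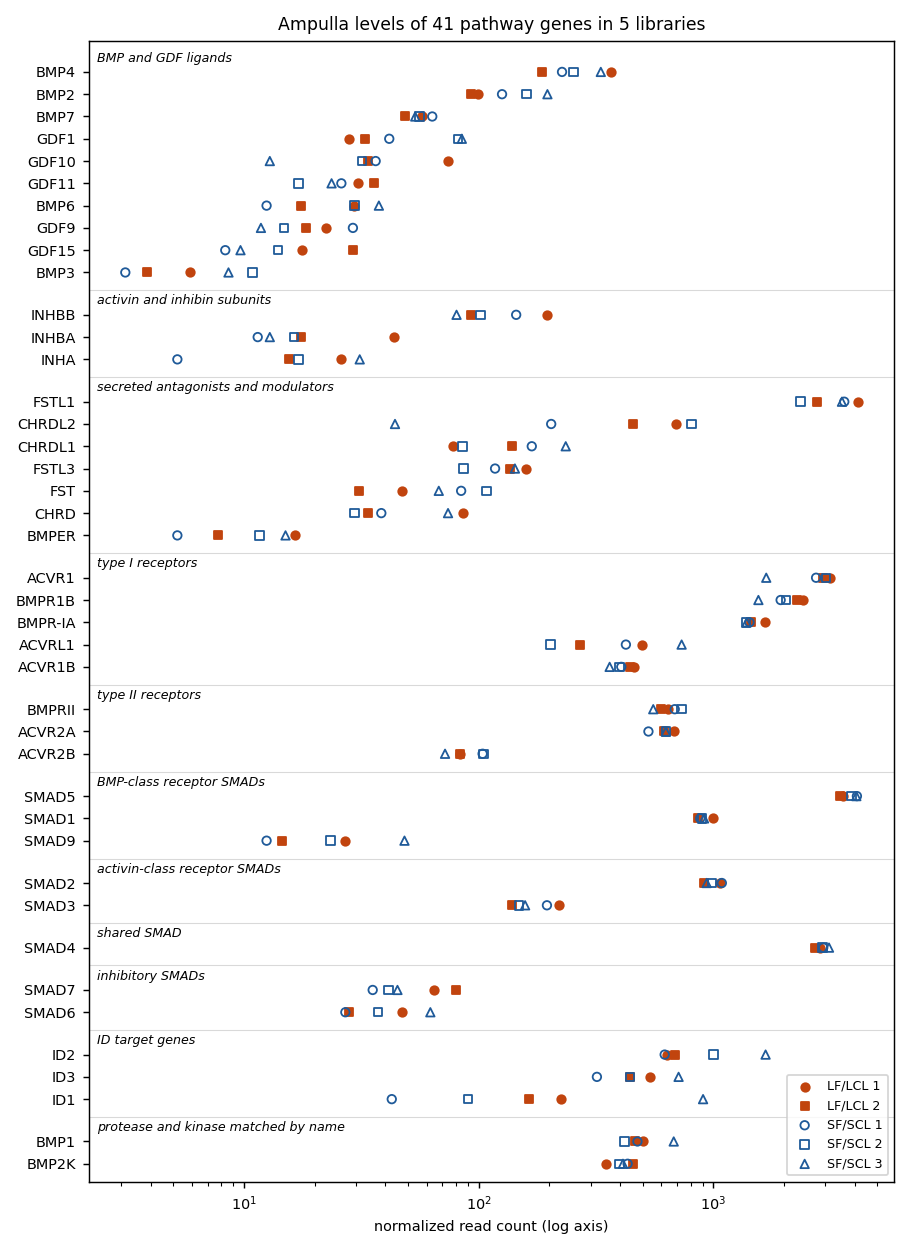
Normalized read counts (log axis) of the 41 tested members in the 5 libraries, grouped by role. Filled symbols are LF/LCL replicates 1 (circle) and 2 (square), open symbols are SF/SCL replicates 1 (circle), 2 (square) and 3 (triangle). For SMAD1, SMAD2, SMAD4 and SMAD5 the 5 points lie almost on top of each other, while for ID1 and CHRDL2 they spread over more than 10-fold.

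The comparison asked whether the 2 groups differed in any of these genes. With limma on log2(level + 1), 0 of the 41 tested members had an adjusted p under 0.05, and the smallest adjusted p was 0.353, for FST. Over all 15815 genes tested the share was also 0%. DESeq2 on the recovered reads called 0 members as well, where it called 2.89% of all genes. At an unadjusted p under 0.05, limma found 5 of 41 members (12.2%), against a background of 11.5% of all genes. Of these 5, BMPR1B and SMAD7 were higher in LF/LCL, and FST, BMP2 and GDF1 were higher in SF/SCL. In the background, 5.64% of genes passed with the higher level in LF/LCL and 5.86% with the lower. The edgeR quasi-likelihood test and DESeq2 also gave 5 members at an unadjusted p under 0.05. The 2 groups did not overlap in 12 of 41 members (29.3%), against 30.1% of all genes, with 7 higher in LF/LCL (background 15%) and 5 lower there (background 15.1%). The median log2 fold change (LF/LCL over SF/SCL) over the 41 members was 0.07, beside 0.01 over all genes, and the median absolute change was 0.22, beside 0.21. As a set, the members lay close to the background in every one of these counts. Both the number and the identity of members at an unadjusted limma p under 0.05 changed when an SF/SCL library was left out. There were 3 without SF/SCL replicate 1 (GDF1, ID2 and BMP2). Leaving out SF/SCL replicate 2 gave 2 (CHRDL2 and BMPR1B), as did leaving out SF/SCL replicate 3 (ID1 and FST). SMAD7 passed in none of these fits. Fits without an LF/LCL library leave a lone library in that group and are not counted here.

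**Figure D2:**
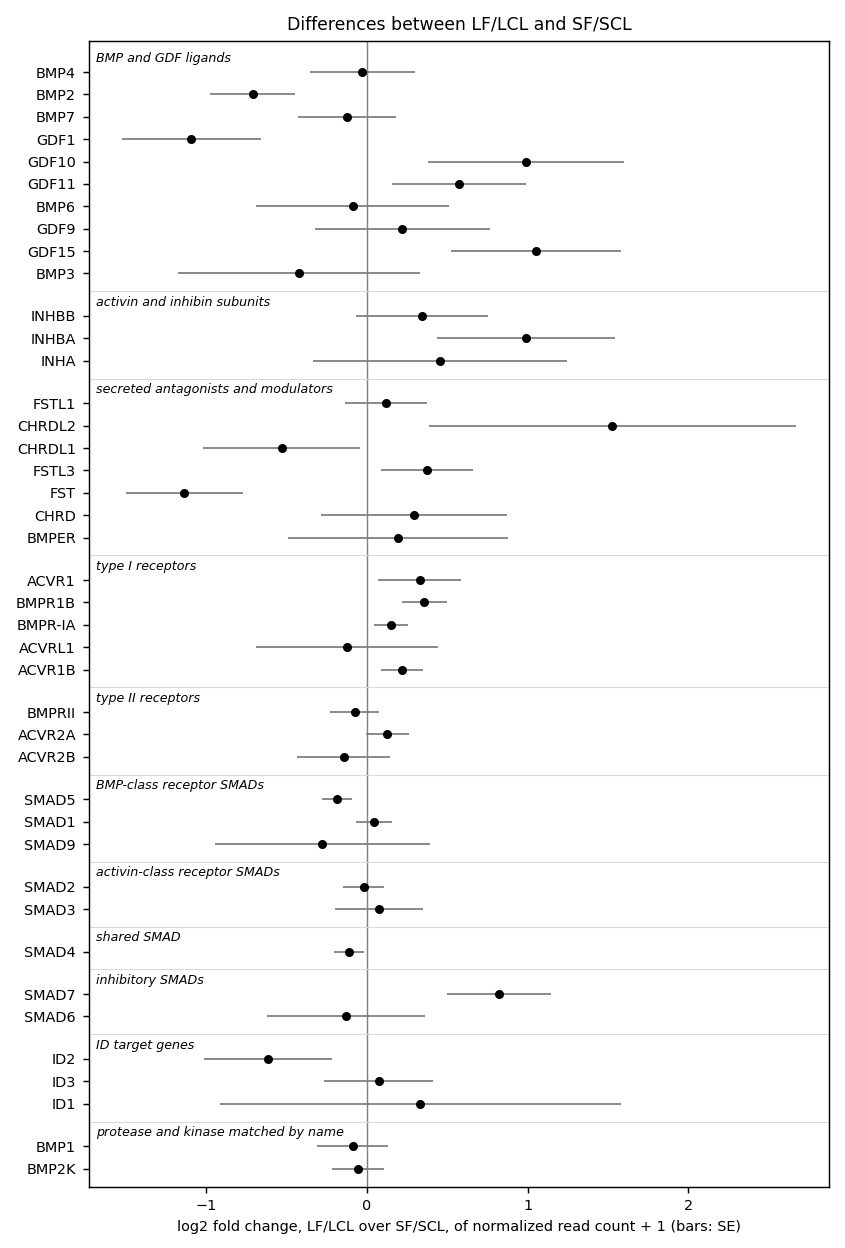
Log2 fold change (LF/LCL over SF/SCL, points) of normalized read count + 1 with its standard error (bars) for the 41 tested members, grouped by role. FST (-1.14), GDF1 (-1.09) and BMP2 (-0.71) lie left of 0 and SMAD7 (0.82) and BMPR1B (0.36) right of it by more than 2 standard errors, as does SMAD5 (-0.19) by a little, and the other members lie within 2 standard errors of 0.

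BMP2 and BMP4 are closely related ligands. BMP2, which acts through BMPR1A and BMPR1B, had levels of 99.7 and 92.9 in the LF/LCL libraries and of 125.8, 160.1 and 196.4 in the SF/SCL libraries. Every SF/SCL library was above both LF/LCL libraries. This gave a log2 fold change of -0.71 ± 0.26 (SE, n = 2 and 3), with a limma adjusted p of 0.4 and a DESeq2 adjusted p of 0.25. BMP4, used by the same receptors, had levels of 365.9 and 186.8 in the LF/LCL cows and of 226.7, 253.4 and 331.6 in the SF/SCL cows. The LF/LCL libraries were the highest and the lowest of the 5, so the groups overlapped completely, and the log2 fold change of -0.03 ± 0.33 (SE) turned to 0.03 with DESeq2 or edgeR and to 0.45 without LF/LCL replicate 2.

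GDF1, a ligand known from left-right patterning of the embryo, had levels of 28.1 and 32.9 in the LF/LCL cows and of 41.6, 81.6 and 84.8 in the SF/SCL cows. The groups did not overlap, and SF/SCL replicates 2 and 3 were about 2-fold above SF/SCL replicate 1. The log2 fold change was -1.09 ± 0.43 (SE), adjusted p 0.42 by limma. In mammals GDF1 shares its transcription unit with CERS1, so its reads are uncertain. The other tested ligands were BMP3, BMP6, BMP7, GDF9, GDF10, GDF11 and GDF15, with limma adjusted p from 0.51 to 0.974. GDF15, a stress-induced ligand, had levels of 17.6 and 29.0 in LF/LCL against 8.32, 13.99 and 9.66 in the SF/SCL cows. These groups did not overlap, but the levels rested on 80 reads in all. BMP7 varied least among the tested ligands, from 48.4 to 63.4.

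The ligands known from the oocyte had few reads. BMP15 had 15 reads over the 5 libraries and was not tested. GDF9 had 96 reads, with levels from 11.8 to 29.1, above the limit of 3 reads in every library. Of the 7 oocyte markers, NLRP5 had 74 reads in all, ZP2 42, DAZL 17, DDX4 9, OOSP1 4, ZP3 3 and ZP4 0. Of the ligands BMP5, GDF2, GDF6 and GDF7, each had 6 reads or fewer in all.

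The activin and inhibin subunits gave low counts. Activins are dimers of the beta subunits INHBA and INHBB, and inhibins pair one of these with INHA. INHBB, the subunit with the most reads, had levels of 194.7 and 92.9 in the LF/LCL cows and of 144.5, 101.8 and 80.5 in the SF/SCL cows, which overlapped. Its log2 fold change was 0.34 ± 0.41 (SE), adjusted p 0.805 by limma, and -0.19 without LF/LCL replicate 1. INHBA had levels of 43.4 and 17.4 in the LF/LCL cows and of 11.4, 16.3 and 12.9 in the SF/SCL cows. Both LF/LCL libraries were above all SF/SCL libraries, LF/LCL replicate 2 only just. The log2 fold change of INHBA was 0.99 ± 0.56 (SE), adjusted p 0.554 by limma, and it rested on 99 reads in all. It was 0.36 without LF/LCL replicate 1 and 1.62 without LF/LCL replicate 2. INHA ran from 5.20 to 31.1, and its lowest and highest libraries were both SF/SCL.

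Follistatin (FST), the secreted protein that binds activin almost irreversibly, had the smallest p of all members. It had levels of 46.9 and 31.0 in the LF/LCL cows and of 84.2, 108 and 67.6 in the SF/SCL cows, from 40, 32, 81, 139 and 63 reads. Every SF/SCL library was above both LF/LCL libraries, and the group means were 38.9 ± 11.3 (SD, n = 2) and 86.6 ± 20.3 (SD, n = 3). This gave a log2 fold change of -1.14 ± 0.36 (SE), with an unadjusted p of 0.0198 and an adjusted p of 0.353 by limma, and an adjusted p of 0.144 by DESeq2. The direction held when any library was left out, with log2 fold changes from -1.43 to -0.85, and the unadjusted limma p was then under 0.05 without LF/LCL replicate 1 or SF/SCL replicate 3 and above it without any of the other libraries.

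FST is also a product of granulosa cells, so markers of granulosa and luteal cells were read beside it. Of 8 markers 7 were matched, and their summed level was 157.2 to 186.8 in the LF/LCL cows and 201.7 to 391.7 in SF/SCL. LHCGR and FSHR, the gonadotropin receptors, had no read in any library, and CYP19A1, the aromatase, had a level of 1.17 in LF/LCL replicate 1 and 0 in the others. Most of the sum came from CYP11A1, which starts steroid synthesis, with 61.0 and 84.2 in the LF/LCL cows and 119.6, 146.1 and 236.1 in the SF/SCL cows, and from STAR, which overlapped between the groups. FOXL2 overlapped as well, with 31.7 and 15.5 in the LF/LCL cows and 17.7, 28.8 and 32.2 in the SF/SCL cows. The gap between the sums was thus not shared by all markers. AMH, given with the wider pathway list, is also one of these markers. The part of such cells in the FST values was not tested beyond these levels.

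Within a library the ratio of INHBA to FST sets an activin subunit against its antagonist. The ratio was 0.925 and 0.563 in the LF/LCL cows and 0.136, 0.151 and 0.19 in the SF/SCL cows. The groups did not overlap, and the difference of the mean log2 ratios was 2.20, or 4.58-fold, with SDs of 0.51 (n = 2) and 0.25 (n = 3). INHBA and FST each did not overlap, in opposite directions, so their ratio could not overlap either. It restates the differences of the 2 genes and is no separate result. The ratios were not among the planned comparisons. A two-sided exact permutation test, which doubles the smaller one-sided p, gave p = 0.2 (adjusted over 4 ratios, 0.267). With 10 arrangements of the libraries this is the smallest p that this test can give, and any ratio without overlap gives it. The difference ran from 1.84 to 2.55 when single libraries were left out. The ratio of BMP2 to BMP4 did not overlap either, with 0.272 and 0.497 in the LF/LCL cows and 0.555, 0.632 and 0.592 in the SF/SCL cows, a log2 difference of -0.69 (exact permutation p = 0.2). Without LF/LCL replicate 1 this difference shrank to -0.25, and without LF/LCL replicate 2 it was -1.12.

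**Figure D3:**
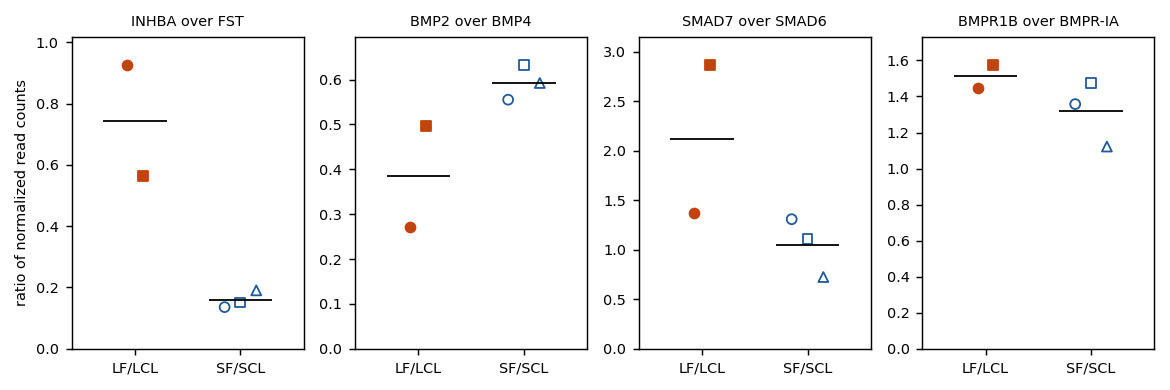
Ratio of the normalized read counts of 2 members within each library, for 4 pairs. Filled orange points are LF/LCL libraries, open blue points are SF/SCL libraries and lines are group means. For INHBA over FST the LF/LCL points (0.925 and 0.563) lie above all SF/SCL points (up to 0.19), and for BMPR1B over BMPR-IA the groups overlap.

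The remaining antagonists and modulators gave no call. FSTL1, a secreted glycoprotein of mesenchymal cells, had the highest read count of this role, with levels of 4129 and 2757 in the LF/LCL cows and 3616, 2356 and 3536 in the SF/SCL cows, a log2 fold change of 0.12 ± 0.26 (SE), adjusted p 0.906 by limma, and of -0.18 without LF/LCL replicate 1. FSTL3, which like follistatin binds activin, ran from 86.3 to 159.5 and overlapped. CHRDL2, a chordin-like protein that binds BMPs, had levels of 694.3 and 454.0 in the LF/LCL cows and of 203.8, 807.5 and 44.0 in the SF/SCL cows. The 3 SF/SCL libraries alone spanned 18.4-fold and enclosed both LF/LCL libraries. Its log2 fold change of 1.53 ± 1.14 (SE) was the largest of all members and its limma adjusted p was 0.668. It was 2.55 without SF/SCL replicate 2 (limma adjusted p 0.423), 0.47 without SF/SCL replicate 3, and 0.71 with DESeq2.

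Chordin (CHRD), CHRDL1 and BMPER, a modulator of BMPs in vessels, overlapped between the groups, with levels of 29.5 to 85.6, 77.4 to 235.0 and 5.20 to 16.4. The classical antagonists NOG and GREM1 were nearly absent from the libraries. NOG had 7 reads in all, with 0 in both LF/LCL libraries and 2, 4 and 1 in the SF/SCL libraries, and GREM1 had 1 read in all. These counts are at or near the limit of 3 reads, and neither gene passed the filter for the test. FSTL4 also had 7 reads in all.

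Among the type I receptors, 4 of the 5 tested had a higher mean log2 level in LF/LCL and 3 did not overlap, all higher in LF/LCL (background 15%), but no adjusted p was under 0.05. BMPR1B, a type I receptor for BMPs and GDFs that is known for its effect on ovulation rate in sheep, had levels of 2408 and 2283 in the LF/LCL cows and of 1937, 2038 and 1557 in the SF/SCL cows. Both LF/LCL libraries were above all SF/SCL libraries, and SF/SCL replicate 3 was the lowest. The log2 fold change was 0.36 ± 0.14 (SE), with an unadjusted p of 0.0438 and an adjusted p of 0.42 by limma, and it was 0.24 without SF/SCL replicate 3. The other BMP type I receptor of this pair, listed as BMPR-IA, had levels of 1661 and 1451 in the LF/LCL cows and of 1426, 1382 and 1388 in the SF/SCL cows. Its groups did not overlap, but the log2 fold change was only 0.15 ± 0.10 (SE), adjusted p 0.634 by limma, and ran from 0.05 to 0.25 without single libraries. The ratio of BMPR1B to BMPR-IA overlapped between the groups, with a log2 difference of 0.21 (exact permutation p = 0.4).

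ACVR1, a type I receptor shared by BMPs and activins, had the highest read count of the receptors. Its levels were 3130 and 2922 in the LF/LCL cows and 2743, 3029 and 1682 in the SF/SCL cows, so that SF/SCL replicate 3 alone lay apart from the other 4 libraries. Its log2 fold change was 0.33 ± 0.26 (SE), and 0.07 without that library. ACVR1B, the activin type I receptor, had levels of 460.9 and 442.3 in the LF/LCL cows and of 405.5, 398.7 and 361.7 in the SF/SCL cows, with no overlap and a limma adjusted p of 0.58. ACVR1C, its relative, had 17 reads in all and was not tested. The type II receptors ACVR2A, ACVR2B and BMPRII overlapped between the groups. BMPRII, with the most reads of these, had levels of 639.2 and 600.1 in LF/LCL and of 685.2, 732.9 and 554.8 in SF/SCL. ACVR2A, with levels from 529.2 to 680.2, had a log2 fold change of 0.13 ± 0.14 (SE), from 0.04 to 0.20 without single libraries.

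ACVRL1, a type I receptor of endothelial cells for BMP9 and BMP10, spanned 3.61-fold between libraries, against 1.86-fold for ACVR1. Its levels were 496.1 and 269.1 in the LF/LCL cows and 424.2, 202.8 and 733.0 in the SF/SCL cows, so that the SF/SCL libraries enclosed both LF/LCL libraries. The gene of its ligand BMP9, GDF2, had 3 reads in all, and BMP10 had none. The 7 matched endothelial markers summed to 7638 and 4819 in LF/LCL and to 6360, 5847 and 8363 in the SF/SCL cows. The sum was highest in SF/SCL replicate 3, as was ACVRL1, but lowest in LF/LCL replicate 2, while ACVRL1 was lowest in SF/SCL replicate 2. By gene, 4 of the 7 markers were highest in LF/LCL replicate 1 and 3 in SF/SCL replicate 3, and KDR alone made up 3560 of the sum of 8363 in SF/SCL replicate 3. The part of endothelial cells in the ACVRL1 values was not tested.

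The SMADs that carry the signal varied little. SMAD5, a BMP-class receptor SMAD with the highest read count of all members, had levels of 3579 and 3482 in the LF/LCL cows and of 4094, 3891 and 4071 in the SF/SCL cows. The groups did not overlap, yet the log2 fold change was only -0.19 ± 0.09 (SE), adjusted p 0.502 by limma. SMAD4, the shared partner, had levels of 2837 and 2707 in the LF/LCL cows and of 2941, 2923 and 3113 in the SF/SCL cows, with a log2 fold change of -0.11 ± 0.09 (SE). SMAD1 ran from 859.5 to 993.3. SMAD2 had levels of 1068 and 910.8 in the LF/LCL cows and of 1088, 986.2 and 936.9 in the SF/SCL cows. Its log2 fold change was -0.02 ± 0.13 (SE), and 0.09 without LF/LCL replicate 2. The coefficient of variation over the 5 libraries was 5.13% for SMAD4, 5.69% for SMAD1, 7.35% for SMAD5 and 7.83% for SMAD2. Among all 6901 genes with a mean level of at least 500 the median coefficient of variation was 11.5%, and over the 12 members above that level it was 9.87%. The SMADs with fewer reads spread more. SMAD3 ran from 138.4 to 220.5 and SMAD9 from 12.5 to 48.3.

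The inhibitory SMADs feed back on the receptors. SMAD7, which blocks both the BMP and the activin branch, had levels of 64.5 and 80.3 in the LF/LCL cows and of 35.3, 41.2 and 45.1 in the SF/SCL cows. Both LF/LCL libraries were above all SF/SCL libraries. The log2 fold change was 0.82 ± 0.33 (SE), with an unadjusted p of 0.0443 and an adjusted p of 0.42 by limma. SMAD6, which acts mainly on the BMP branch, had levels of 46.9 and 28.1 in the LF/LCL cows and of 27.0, 37.3 and 62.2 in the SF/SCL cows, with complete overlap. Its log2 fold change was -0.13 ± 0.49 (SE), and 0.23 without LF/LCL replicate 2. The ratio of SMAD7 to SMAD6 was 1.37 and 2.86 in the LF/LCL cows and 1.31, 1.104 and 0.724 in the SF/SCL cows. The groups did not overlap, with a log2 difference of 0.97 (exact permutation p = 0.2, the smallest that this test can give). It was 0.44 without LF/LCL replicate 2 and 1.496 without LF/LCL replicate 1.

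The ID genes encode inhibitors of basic helix-loop-helix transcription factors. ID1 had levels of 225.2 and 163.6 in the LF/LCL cows and of 42.6, 90.2 and 904.7 in the SF/SCL cows. The SF/SCL libraries alone spanned 21.2-fold, from the lowest to the highest value of the 5. The log2 fold change of ID1 was 0.33 ± 1.25 (SE) with limma and -0.83 with DESeq2 and edgeR, and without SF/SCL replicate 3 it was 1.61 with an unadjusted p of 0.0144 and an adjusted p of 0.416 by limma. Leaving out SF/SCL replicate 1 gave -0.58, and leaving out SF/SCL replicate 2 gave -0.04. The direction of ID1 between the groups thus changed with the library left out and with the scale of the test.

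ID2 and ID3 had the same libraries at their ends. ID2 had levels of 632.1 and 687.2 in the LF/LCL cows and of 620.7, 1000.2 and 1671 in the SF/SCL cows, with a log2 fold change of -0.62 ± 0.40 (SE), adjusted p 0.608 by limma. Leaving out SF/SCL replicate 3 gave -0.26, and leaving out SF/SCL replicate 1 gave -0.97. ID3 had levels of 538.3 and 442.3 in the LF/LCL cows and of 319.2, 440.7 and 711.5 in the SF/SCL cows, with a log2 fold change of 0.07 ± 0.34 (SE), adjusted p 0.96 by limma, which turned to -0.07 without LF/LCL replicate 1 and to -0.20 without SF/SCL replicate 1. In each of the 3 ID genes SF/SCL replicate 3 was the highest library and SF/SCL replicate 1 the lowest.

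The same ends were found in SMAD6, SMAD9, BMP6 and INHA, a pattern noticed after the values were seen. In all, 7 of 41 members (17.1%) were highest in SF/SCL replicate 3 and lowest in SF/SCL replicate 1, against 3.74% of all genes tested. BMP6, a BMP ligand, had levels of 12.5, 29.5 and 37.6 in SF/SCL replicates 1, 2 and 3, and SMAD9 of 12.5, 23.3 and 48.3. Of the other known BMP targets in the list of pathway genes, ATOH8 had levels of 46.8, 24.9 and 100.9 in SF/SCL replicates 1, 2 and 3 and of 45.7 and 41.6 in LF/LCL. It was highest in SF/SCL replicate 3 too, as was RUNX2 of that list, while HEY1, MSX1, MSX2 and DLX5 were not. Only 8 of the 45 tested genes of that list were highest in SF/SCL replicate 3, a share below the background of 23.7%. DLX5 and BAMBI, also of that list, were lowest in SF/SCL replicate 3, and HAMP had 1 read in all. Of the 7 endothelial markers, 3 were highest in SF/SCL replicate 3 and 4 in LF/LCL replicate 1, and their part in this pattern was not tested. LF/LCL replicate 1 held the highest level in 15 of 41 members (background 21.9%) and SF/SCL replicate 3 in 13 (background 23.7%). LF/LCL replicate 2 held it in 4 (background 20.9%), SF/SCL replicate 1 in 4 (background 14.5%) and SF/SCL replicate 2 in 5 (background 19%). The lowest level lay most often in SF/SCL replicate 1, in 13 members (background 15.8%). It lay in LF/LCL replicate 1 in 3 (background 21.5%), in LF/LCL replicate 2 in 9 (background 19.7%), in SF/SCL replicate 2 in 7 (background 18.7%) and in SF/SCL replicate 3 in 9 (background 24.3%).

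**Figure D4:**
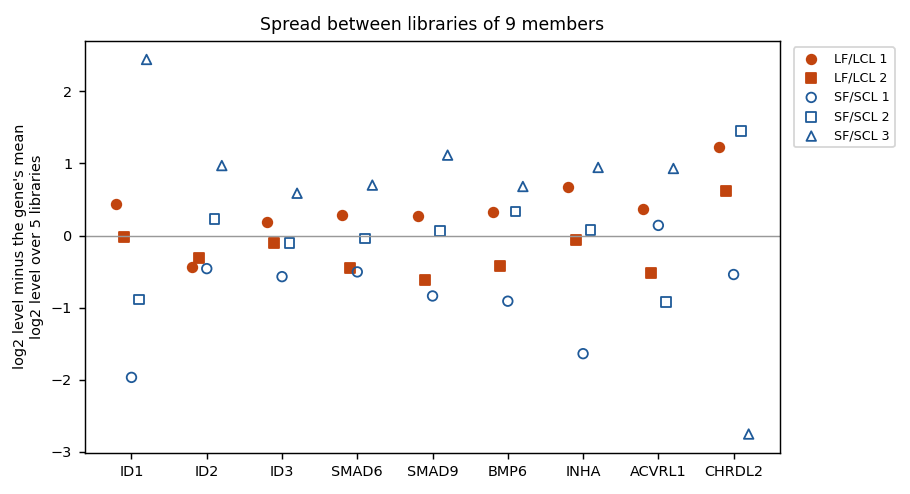
Log2 level of 9 members in each library, minus the mean log2 level of that gene over the 5 libraries. Filled symbols are LF/LCL replicates 1 (circle) and 2 (square), open symbols are SF/SCL replicates 1 (circle), 2 (square) and 3 (triangle). For ID1, ID2, ID3, SMAD6, SMAD9, BMP6 and INHA the triangle is highest and the open circle lowest, while for CHRDL2 the triangle is lowest.

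BMP1 and BMP2K, which the rule took in by name, had no limma adjusted p under 0.919. BMP1 had levels of 503.1 and 462.7 in the LF/LCL cows and of 475.1, 418.9 and 678.3 in the SF/SCL cows, with a log2 fold change of -0.09 ± 0.22 (SE) that was 0.11 without SF/SCL replicate 3. BMP2K ran from 348.3 to 454.9.

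A list of 60 further genes of the pathway held coreceptors, other modulators, processing enzymes, SMAD regulators and target genes. Of these 53 were matched and 45 tested. With limma 0 had an adjusted p under 0.05, while 5 (11.1%) had an unadjusted p under 0.05, 4 higher in LF/LCL and 1 lower there, close to the background of 11.5%. DESeq2 called 1 of the 45, where it called 2.89% of all genes. The groups did not overlap in 14 (31.1%), against 30.1% of all genes, with 10 higher in LF/LCL (background 15%) and 4 lower there (background 15.1%).

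The gene called by DESeq2 was TWSG1 (twisted gastrulation), a secreted protein that binds BMPs and chordin. It had levels of 2995 and 2850 in the LF/LCL cows and of 1997, 1910 and 1944 in the SF/SCL cows. The libraries of each group lay close together and the groups stood far apart, with means of 2922 ± 103 (SD, n = 2) and 1950 ± 43.9 (SD, n = 3). This gave a log2 fold change of 0.58 ± 0.09 (SE), with an unadjusted p of 0.000661 and an adjusted p of 0.178 by limma, and an adjusted p of 3.13e-05 by DESeq2. When each library was left out in turn, the log2 fold change ran from 0.55 to 0.62 and the limma adjusted p from 0.276 to 0.44.

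The next genes by p were RGMB, FURIN, BAMBI, AMH and RGMA. RGMB, a BMP coreceptor, had levels of 283.8 and 251.7 in the LF/LCL cows and of 180.9, 158.5 and 117 in the SF/SCL cows, a log2 fold change of 0.83 ± 0.24 (SE), adjusted p 0.327 by limma. RGMA, its relative, had a log2 fold change of 0.52 ± 0.24 (SE), which was 0.24 without LF/LCL replicate 1 and 0.81 without LF/LCL replicate 2. Both coreceptors were higher in each LF/LCL library than in any SF/SCL library. FURIN, the protease that cuts the ligand precursors, had a log2 fold change of 0.51 ± 0.17 (SE), which fell to 0.26 without LF/LCL replicate 1. BAMBI, a pseudoreceptor that blocks type I receptors, had levels of 137.2 and 178.1 in the LF/LCL cows and of 94.6, 110.4 and 82.6 in the SF/SCL cows, a log2 fold change of 0.71 ± 0.26 (SE), adjusted p 0.391 by limma. AMH, the anti-Mullerian hormone, had 8.21 and 9.68 in the LF/LCL cows and 16.6, 21.8 and 37.6 in the SF/SCL cows, from 96 reads in all.

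**Figure D5:**
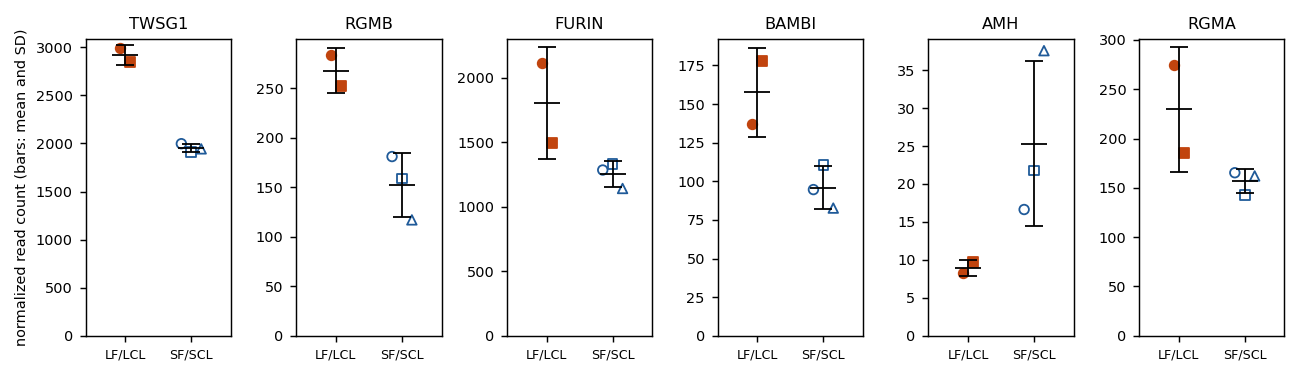
Normalized read counts of the 6 genes with the smallest limma p among the 45 tested genes of the wider pathway list. Filled orange symbols are LF/LCL libraries, open blue symbols are SF/SCL libraries, and bars are the mean and SD. TWSG1 is near 2922 in the LF/LCL cows and 1950 in the SF/SCL cows, with no overlap.

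Levels of cell type markers also differed between libraries. All 10 tested smooth muscle markers had a higher mean in LF/LCL, with a summed level of 63110 to 121921 against 15839 to 42017 in SF/SCL. All 10 tested ciliated cell markers had a lower one, with sums of 57529 to 72271 against 82091 to 86117. The groups did not overlap in 9 of the 10 smooth muscle markers (background 15%) and in 8 of the 10 ciliated markers (background 15.1%). Stromal fibroblast markers were higher in 8 of 9, but their sums of 34996 to 83762 and 21689 to 48439 overlapped. Immune markers summed to 2262 to 3074 against 1473 to 2521, and proliferation markers to 1292 to 1709 against 1097 to 1181. Of the 9 immune markers 7 were higher in LF/LCL. The groups did not overlap in 6, with 5 higher there (background 15%) and 1 lower (background 15.1%). All 7 proliferation markers were higher in LF/LCL, with a median log2 fold change of 1.35. In 4 of them the groups did not overlap (background 15%). PCNA, which overlapped at 862.9 to 1026, made up most of the proliferation sum. Mesothelial markers summed to 10415 to 10828 against 11900 to 14785. Of the 4 tested mesothelial markers only KRT19 did not overlap, at 3166 to 3516 against 5066 to 6749. WT1, UPK3B and LRRN4 overlapped, so the gap between these sums was not shared by the list. Oocyte markers summed to 20.3 to 49.3 against 19.8 to 30.3, and blood markers to 65.8 to 506.6 against 16.1 to 233.9. Secretory markers summed to 158871 to 177426 against 158523 to 183466, most of it OVGP1. While 5 of the 7 were higher in LF/LCL, MSLN (log2 fold change -1.13) and OVGP1 (-0.07) were lower there and overlapped. The groups did not overlap in 4 secretory markers, all higher in LF/LCL (background 15%). Among these PAX8, a transcription factor of secretory cells, had an adjusted p of 0.0447 by DESeq2 and 0.284 by limma. PAX8 was the only secretory marker called by DESeq2. It also called 5 of 10 tested smooth muscle markers, 2 of 10 ciliated, 1 of 7 endothelial and 1 of 4 mesothelial, against 2.89% of all genes. The highest smooth muscle and stromal sums were both in LF/LCL replicate 1. That library also held the highest level of 15 of 41 members (36.6%, background 21.9%). These were BMP4, GDF10, INHBA, INHBB, ACVR1, ACVR1B, ACVR2A, BMPR1B, BMPR-IA, SMAD1, SMAD3, CHRD, FSTL1, FSTL3 and BMPER. The part of these cell types in the members' values was not tested.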

How the data were processed

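The deposited unit is a normalized signal. The authors trimmed paired reads of polyA libraries with seqyClean, aligned them with TopHat2 2.0.8 and Bowtie2 2.1.0 to the masked UMD cattle assembly, counted uniquely mapped reads per Ensembl gene with HTSeq, and divided by the DESeq 1.12.1 size factor of each library. Whether counting used strand was not given in the sources used here. Dividing each value by its library's step gave whole reads (within 0.02) for 100% of nonzero values.

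The test was limma 3.58.1 on log2(value + 1), with trend and robust estimation, for the 15815 genes with a mean over 5, adjusted by Benjamini-Hochberg over all of them, two-sided, without covariates. Fold changes on this scale understate changes of low genes. DESeq2 1.42.0 and edgeR 4.0.16 were run on the recovered reads, where edgeR called 0 genes and found 1843 (11.7%) at an unadjusted p under 0.05, and limma found 1819. No 2 libraries agreed within counting noise. Members, lists and named genes were chosen with earlier results of these data known. Values in each library are given for members with an unadjusted p under 0.05, those with the most reads in each role, paired members, and others chosen after their values were seen (GDF15, ACVR1B, ACVRL1, CHRDL2). Of the wider list, the 6 genes with the smallest p are named, ATOH8, HEY1, MSX1, MSX2, DLX5, RUNX2 and HAMP having been added after seeing the data. The table holds no coordinates or sequences, and none are given. P-values of limma, DESeq2 and edgeR set the group difference against the spread between these animals, moderated across genes. The animals came from the ends of both groups, so this is not the spread within the whole groups.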

Additional observations from a re-analysis of the deposited data

How the results depend on the processing

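The alternatives were DESeq2 and edgeR on recovered reads, a pseudocount of 0.5, no filter, a mean above the SD, TMM scaling and leaving out each library. For the ratios, only the last was run, an alternative added after seeing the data. Where an LF/LCL library was left out, the lone one was assumed to vary like the SF/SCL libraries. No paired analysis was possible because the groups share no animal and no replicate numbers in the labels.

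The number of all genes with an adjusted p under 0.05 was 0 with limma and 457 with DESeq2, and 0 to 0 across the fits without one library. That of members was 0 under every alternative run. Members at an unadjusted p under 0.05 numbered 0 to 2 higher in LF/LCL (main 2) and 0 to 3 higher in SF/SCL (main 3) across the fits without one library, and the wider list 2 to 6 (main 4) and 0 to 1 (main 1). The median log2 fold change over members ran from -0.137 to 0.248. With no filter, NOG and GDF2 passed the unadjusted p on 7 and 3 reads, and SMAD7 did not.

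With DESeq2 and edgeR, BMP4 (-0.03) went to 0.030, and ID1 (0.33) to -0.829 and -0.826. Without one library, log2 fold changes that changed sign ran from -0.186 to 0.873 (INHBB), -0.198 to 0.379 (ID3), -0.175 to 0.408 (FSTL1), -0.513 to 0.453 (BMP4), -0.489 to 0.232 (SMAD6), -0.137 to 0.093 (SMAD2), -0.608 to 0.316 (ACVRL1), -0.575 to 1.613 (ID1) and -0.234 to 0.113 (BMP1). The cause was not tested. The other genes given with a fold change kept their direction under the alternatives run. Depth limits members under about 100 reads, among them INHBA, INHA, GDF9 and GDF15.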
